A study of Mus musculus with 6 samples.

Results

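The genes described here are 9 members of the JAK-STAT signalling families, 4 Janus kinases (Jak1, Jak2, Jak3 and Tyk2) and 5 signal transducers and activators of transcription (Stat2, Stat3, Stat4, Stat5a and Stat6). They were taken by gene symbol from a table of 54532 mouse genes, and all 9 passed the filter on low values that left 13441 genes. RNA sequencing had been performed on bone marrow-derived macrophages (BMDMs) after in vitro co-culture with ID8, an ovarian cancer line of mouse origin. The tumour cells had received 40 µM cisplatin, a DNA-crosslinking platinum compound, before co-culture for 3 of the libraries and phosphate-buffered saline (PBS) for the other 3, so the drug was applied to the tumour cells and every BMDM library came from a co-culture. The study's methods describe the cells as bone marrow-derived monocytes from C57BL/6 mice kept in RPMI 1640 with serum, without naming a growth factor. The age of the mice is given there as a span of weeks and is absent from the sample labels. The co-culture set-up, its duration and the way the BMDMs were separated from ID8 cells are not given in the sources used here. The study's methods mention biological replicates for the differential expression but do not describe them. The labels do not say whether the 3 replicates of a group were separate cultures, so the p-values measure the spread between these libraries, which may be technical.

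Janus kinases are tyrosine kinases bound to the inner side of cytokine receptors. When a cytokine joins its receptor chains, the kinases phosphorylate the receptor and then a STAT protein, which dimerises, enters the nucleus and binds DNA. In macrophages, type I interferon acts through Jak1 and Tyk2 on a complex that contains Stat2 and Irf9, interleukin 10 and interleukin 6 act mainly through Stat3, interleukin 4 through Stat6, and granulocyte-macrophage colony-stimulating factor through Jak2 and Stat5 proteins. These activities depend on phosphorylation, which was not measured; the values below are transcript levels.

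With cisplatin-pretreated ID8 cells, 8 of the 9 genes were lower than with PBS-pretreated cells at an adjusted p under 0.05 (limma, Benjamini-Hochberg adjustment over all 13441 genes) and 0 were higher. By the same criterion 35.1% of all tested genes were lower and 32.9% higher, 68% in all. Only Stat2 among the 9 also passed the fold threshold (a log2 fold change of 1 or more in size), which 11.3% of the tested genes passed in the lower direction and 15.9% in either. The 3 cisplatin libraries lay below the 3 PBS libraries without overlap for the same 8 genes, and 37.2% of tested genes showed that pattern. The opposite pattern, which 35.2% of tested genes showed, was seen for 0 of the 9, and 72.4% of tested genes had no overlap in either direction. Stat4 was the exception, with a log2 fold change of 0.09. The median log2 fold change of the 9 genes was -0.45, beside -0.0011 over all tested genes. Counts of reads behind the values were high: 3565 or more per library for Jak1, Jak2, Stat3 and Stat6, and 142 or more for Stat4, the gene with the fewest.

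**Figure D1:**
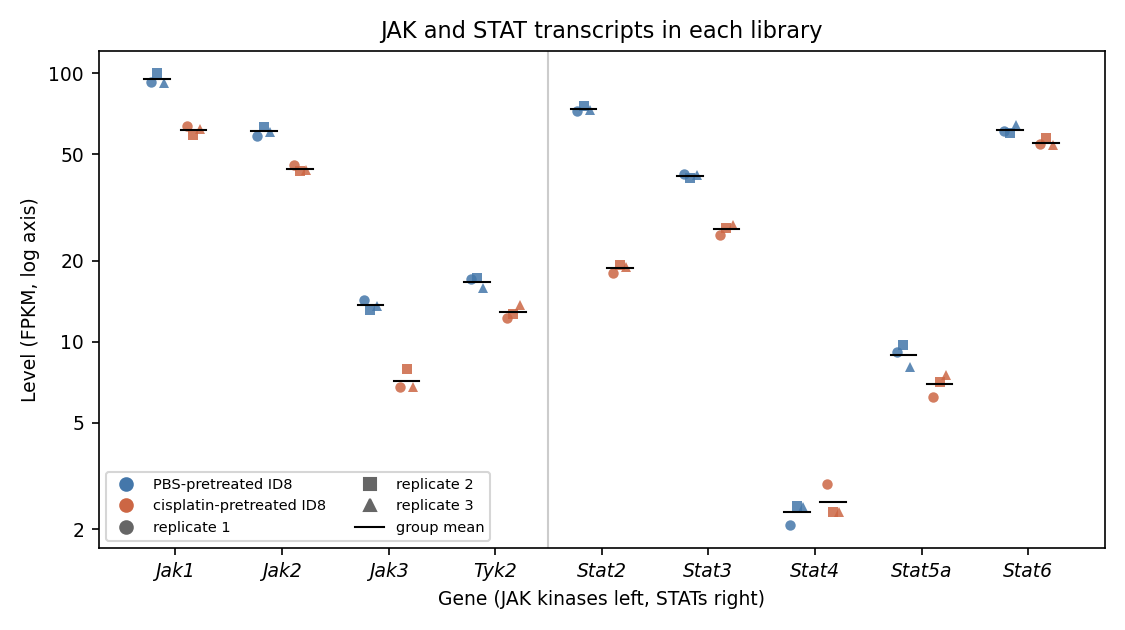
FPKM (log axis) of the 9 genes in each of the 6 libraries, with PBS in blue, cisplatin in orange, a symbol shape for each replicate and a black bar for the group mean. The groups are apart for every gene but Stat4, and the gap is widest for Stat2, at 72.5 to 75.8 FPKM against 18.04 to 19.3.

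Levels are given as FPKM, in which fragment numbers are divided by gene length and by a denominator for each library, so that genes can be set side by side. This denominator was above the recovered reads in every cisplatin library and below them in every PBS library. In the PBS group the order from the highest mean was Jak1, Stat2, Stat6, Jak2, Stat3, Tyk2, Jak3, Stat5a and Stat4. The library ranges of Stat6 and Jak2 overlapped there, and all other neighbours were apart. In the cisplatin group the order was Jak1, Stat6, Jak2, Stat3, Stat2, Tyk2, Jak3, Stat5a and Stat4, and the overlapping neighbours were Jak3 and Stat5a. Stat2 thus moved from rank 2 to rank 5 while the order of the other 8 genes stayed as it was.

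The depth and the cell make-up of the libraries bear on every value. Reads recovered from the FPKM values numbered 15776238 to 16396353 per cisplatin library and 15907567 to 17924686 per PBS library, and no library stood apart from its group (Pearson correlation across genes 0.984 to 0.989 within groups and 0.871 to 0.877 between them). Macrophage markers were present in all libraries, and 11 of 12 were tested, of which 11 were higher with cisplatin at the adjusted p. For this and the following marker counts, the shares over all tested genes were 32.9% higher and 35.1% lower. The summed level of the macrophage markers was 1652 to 1663 FPKM in the PBS libraries and 4243 to 4396 FPKM with cisplatin. Most of this sum came from a single gene, Lyz2, which averaged 1161 FPKM with PBS and 3459 FPKM with cisplatin. Markers of ID8 and mesothelial cells were present as well and moved the other way: 9 of 10 tested were lower and 1 was higher, and their sum was 1311 to 1414 FPKM with PBS and 247 to 268 FPKM with cisplatin. Keratin 19 alone, an epithelial filament protein, went from 587.6 to 51.1 FPKM on average. Markers of neutrophils and their precursors summed to 4838 to 4996 FPKM with PBS and 9060 to 9320 FPKM with cisplatin, with 10 of 10 higher. Those of lymphocytes summed to 205 to 213 FPKM with PBS and 455 to 466 FPKM with cisplatin, with 7 of 9 tested higher and 1 lower. The labelled cell type was therefore not the only one with transcripts in these libraries. The part of these shifts in the JAK and STAT values was not tested, and in bulk RNA fewer cells of a type cannot be told apart from less RNA per cell.

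**Figure D2:**
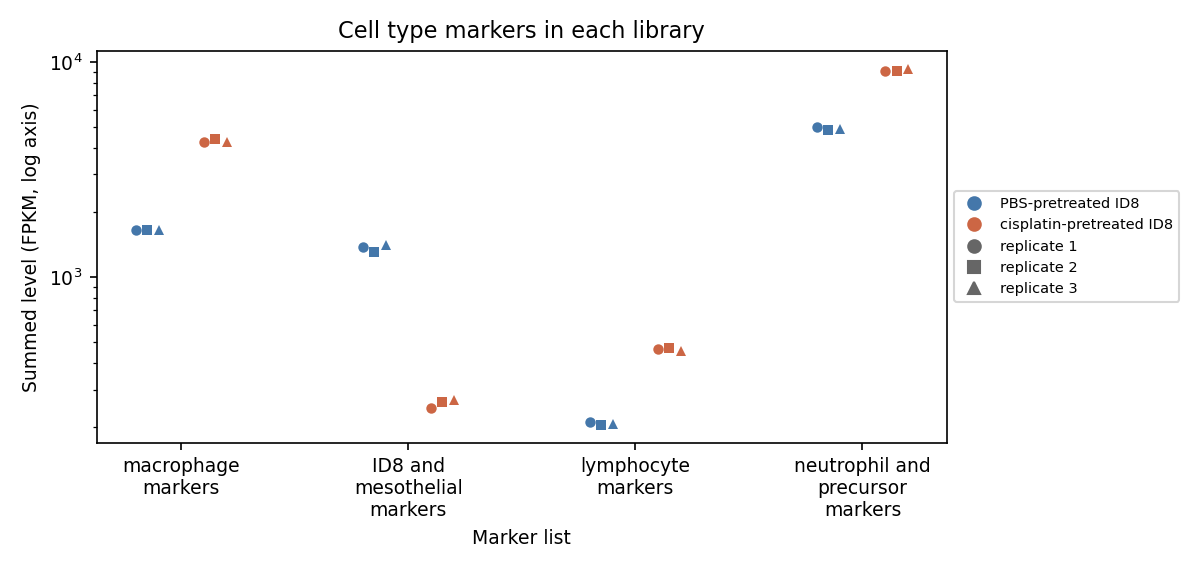
Summed FPKM (log axis) of 4 marker lists in each library, with PBS in blue and cisplatin in orange. The ID8 and mesothelial sum is 1311 to 1414 FPKM in the PBS libraries and 247 to 268 FPKM in the cisplatin libraries, and the other 3 sums are higher with cisplatin.

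Among the kinases, Jak1 had the highest transcript level in both groups. Jak1 (chromosome 4, 101152367 to 101265282, minus strand, GRCm38) pairs with other Janus kinases on interferon, interleukin 6-type and common gamma chain receptors. It was measured at 93.1, 100.01 and 91.9 FPKM in PBS replicates 1 to 3 and at 63.6, 58.9 and 61.8 FPKM in cisplatin replicates 1 to 3. Every cisplatin library was thus below every PBS library, and the mean fell by 35.3%. On the log2(FPKM + 1) scale Jak1 fell by 0.62 (SE 0.047, limma adjusted p = 2.77e-05).

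Jak2 (chromosome 19, 29251828 to 29313080, plus strand) is a kinase of the receptors for granulocyte-macrophage colony-stimulating factor, interferon gamma and growth hormone. Its levels were 58.6, 63.4 and 60.3 FPKM with PBS and 45.5, 43.2 and 43.5 FPKM with cisplatin. The groups did not overlap, and the log2 fold change was -0.45 (SE 0.042, limma adjusted p = 7.48e-05).

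Jak3 fell by more than the other kinases. This kinase (chromosome 8, 71676296 to 71690575, plus strand) binds the common gamma chain and is known mainly from lymphoid cells, although myeloid cells also express it. It was measured at 14.3, 13.1 and 13.6 FPKM with PBS and 6.76, 7.91 and 6.81 FPKM with cisplatin, a mean of 13.7 ± 0.60 (SD, n = 3) against 7.16 ± 0.65 FPKM. The log2 fold change was -0.85 (SE 0.068, 95% interval -1.01 to -0.69, limma adjusted p = 3.79e-05), below the fold threshold. Insl3, a hormone gene that lies within the Jak3 locus on the same strand, had at most 64 reads in a library, beside 602 to 1358 reads for Jak3.

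Tyk2 (chromosome 9, 21104068 to 21131243, minus strand), the partner of Jak1 on the type I interferon and interleukin 10 receptors, showed the smallest decrease of the 4. Its values were 17.2, 17.2 and 15.8 FPKM with PBS and 12.3, 12.7 and 13.7 FPKM with cisplatin. The lowest PBS library stayed above the highest cisplatin library, and the log2 fold change was -0.36 (SE 0.057, limma adjusted p = 0.00121).

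Summed over the 4 kinases, the level was 186 ± 6.61 FPKM (SD, n = 3) with PBS and 126 ± 2.74 FPKM with cisplatin, a ratio of 0.674. The composition of this sum moved little: Jak1 made up 51.0% ± 0.53 (SD, n = 3) of it with PBS and 48.9% ± 0.83 with cisplatin. Jak3 went from 7.37% ± 0.53 to 5.71% ± 0.64 of the sum and Jak2 from 32.6% ± 0.60 to 35.1% ± 0.46. The ratio of Jak2 to Jak3 was 4.45 ± 0.37 with PBS and 6.20 ± 0.66 with cisplatin, with no overlap of the libraries. These shares and ratios are descriptions and were not tested.

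Stat2 differed most of the 9 genes. It is the STAT of the type I and type III interferon response, lies on chromosome 10 (128270559 to 128292849, plus strand) and acts in a complex with the DNA-binding protein Irf9. It was measured at 72.5, 75.8 and 73.1 FPKM in PBS replicates 1 to 3 and at 18.04, 19.3 and 18.9 FPKM in cisplatin replicates 1 to 3. The libraries within each group lay close together and the groups lay far apart, with means of 73.8 ± 1.78 (SD, n = 3) and 18.8 ± 0.65 FPKM, a 3.94-fold lower level with cisplatin. The log2 fold change was -1.92 (SE 0.040, 95% interval -2.02 to -1.83, limma adjusted p = 1.01e-07). Of all tested genes, 3.23% had a more negative fold change.

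**Figure D3:**
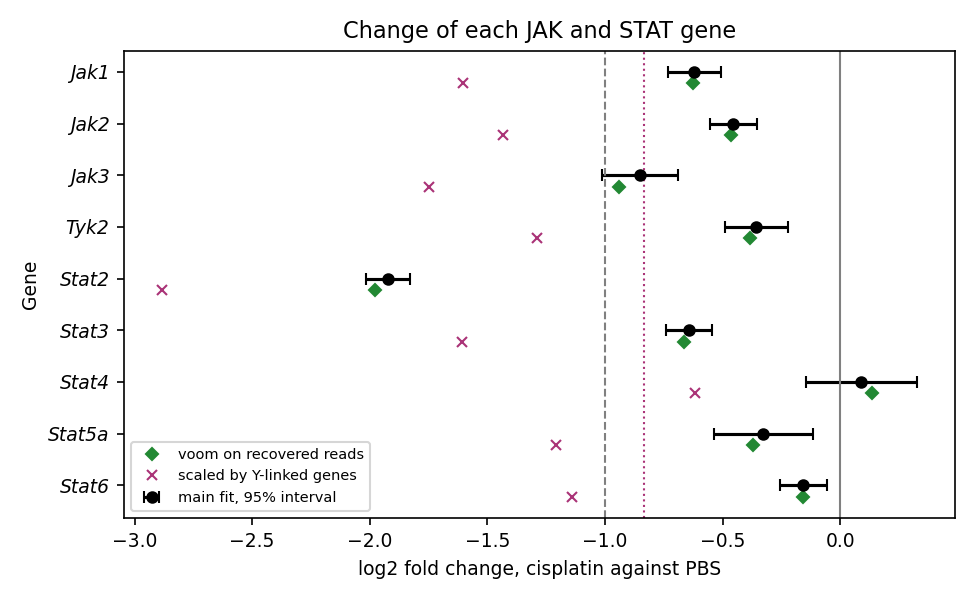
Log2 fold change of each gene, cisplatin against PBS, on the log2(FPKM + 1) scale, with 95% intervals from limma (black), the value from voom on recovered reads (green) and the value after scaling by 4 Y-linked genes (magenta). Lines mark 0, the fold threshold at -1 (dashed) and the median of all genes under the Y-linked scaling (dotted, -0.83). Stat2 is the only gene whose black interval lies wholly beyond -1.

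Interferon-stimulated response elements are the DNA sites to which the Stat2 and Irf9 complex binds, and Stat2 is itself known as an interferon-stimulated gene. The RefSeq window from 250 bases before to 50 bases after each annotated start (GRCm38.p6) was searched on both strands for their core, which was taken as GAAA, any 2 bases and GAAA again. All 9 genes were matched, with 11 windows, and the core was found for Stat2 and Stat4. It is present in 3.44% of the 32851 windows, or for 3.99% of the 27025 genes with a window. Of the 21 genes in a list of Stat2-Irf9 targets, 16 had a window, and 7 of these contained the core. The Stat2 sequence upstream of its RefSeq start is given 5′ to 3′ on the plus strand (chr10:128270248-128270497), with the core, which lies on the minus strand and is read here as its complement, in capitals.

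Stat2 upstream window: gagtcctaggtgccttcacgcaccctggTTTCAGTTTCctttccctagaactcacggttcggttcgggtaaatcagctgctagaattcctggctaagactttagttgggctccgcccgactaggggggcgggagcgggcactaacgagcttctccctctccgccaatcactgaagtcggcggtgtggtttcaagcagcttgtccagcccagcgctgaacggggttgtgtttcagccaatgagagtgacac

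The sites of Stat2, Stat4, Ifit3 and Ifit1 are set beside each other below, each on the strand that reads GAAA and with the core in capitals. All sites found for these 4 genes are given, and Ifit3 and Ifit1 are shown as examples of interferon-induced targets, chosen with their sites in view. The window of Ifit2, of the same family, held no core.
Stat2 (chr10:128270266-128270295, minus): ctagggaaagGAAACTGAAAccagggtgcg
Stat4 (chr1:52008133-52008162, plus): aatgtcttcaGAAAGTGAAAtttagaacgg
Ifit3, first site (chr19:34583363-34583392, minus): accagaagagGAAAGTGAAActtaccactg
Ifit3, next site (chr19:34583397-34583426, minus): gaggaaagtaGAAACTGAAAcagacttaaa
Ifit1, first site (chr19:34640775-34640804, minus): actgagactgGAAAGTGAAActgaagcctg
Ifit1, next site (chr19:34640794-34640823, minus): tcagcagtgaGAAACTGAAActgagactgg

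The core letters of the Stat2 site recur in a site of Ifit3 and a site of Ifit1, and those of the Stat4 site recur in the other site of each. Among the targets whose sites are not printed, Oas1a and Bst2 each have a site with the Stat2 letters, and the sites of Isg15, Oas3 and Rsad2 have the letters of neither. The Stat2 core begins 222 bases before its start and the Stat4 core 97 bases before an alternative start, which lies inside the Stat4 gene as the table gives it. A second motif, TTCNNNGAA, the palindromic core of sites bound by STAT dimers, was searched in the same way. It was found in the windows of 0 of the 9 genes, in those of 3 of the 16 targets, in 8.30% of all windows and for 9.55% of all genes with a window. A match is a description of the letters and not of binding, and the absence of a match covers these windows only.

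Irf9, the partner of Stat2, fell far less than Stat2 itself. It was measured at 22.5, 21.99 and 24.4 FPKM with PBS and 20.01, 18.6 and 19.3 FPKM with cisplatin. Its groups did not overlap, and the log2 fold change was -0.24 (SE 0.052, limma adjusted p = 0.00577). The ratio of Stat2 to Irf9 transcripts was 3.22 ± 0.23 (SD, n = 3) with PBS and 0.972 ± 0.068 with cisplatin.

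The 21 Stat2-Irf9 targets other than Stat2 were all tested and all lower at the adjusted p, and 20 of them passed the fold threshold, Irf9 being the exception. The list was chosen with earlier results of these data known, so the count is a description. Of all tested genes 35.1% were lower at the adjusted p and 11.3% past both thresholds. Their median log2 fold change was -2.06, beside -0.0011 for all tested genes, and their summed level went from 2310 to 2400 FPKM in the PBS libraries to 423 to 442 FPKM in the cisplatin libraries. Ifit3, which encodes an interferon-induced protein with tetratricopeptide repeats, was at 253.0, 264.5 and 271.2 FPKM with PBS and 17.2, 19.9 and 16.1 FPKM with cisplatin. Its log2 fold change was -3.82 (SE 0.074). Ifi44 went from 55.7 to 2.13 FPKM on average and Ifit2, of the same family as Ifit3, from 103.0 to 8.47 FPKM. Stat2 sat near the middle of its targets in fold change.

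The tested genes whose pattern over the 6 libraries was most like that of Stat2, by Euclidean distance between centred log2(FPKM + 1) values, were Sytl2 (distance 0.064) and Afdn (0.073). Sytl2, a vesicle-docking protein gene, was at 4.08, 4.55 and 4.42 FPKM with PBS and 0.350, 0.463 and 0.413 FPKM with cisplatin. Afdn, which encodes the junction protein afadin, was at 21.9, 22.7 and 22.01 FPKM with PBS and 5.23, 5.26 and 5.28 FPKM with cisplatin. The 1 added before the log compresses the change of low genes, so the FPKM of Sytl2 differed by a larger ratio than that of Stat2 at a like log2 value.

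Stat3, which carries signals of interleukin 6, interleukin 10 and leukaemia inhibitory factor, fell with the smaller margin seen for the kinases. The gene (chromosome 11, 100885098 to 100939540, minus strand) was measured at 42.1, 40.8 and 41.7 FPKM with PBS and 25.1, 26.5 and 27.2 FPKM with cisplatin. The groups were well apart and the mean fell by 36.7%, and the log2 fold change was -0.64 (SE 0.041, limma adjusted p = 1.17e-05).

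Stat5a, a STAT of colony-stimulating factor and growth hormone signalling, is the neighbour of Stat3 on the opposite strand (chromosome 11, 100859351 to 100885169), and the annotated 3′ ends of these genes share 72 bases. It was at 9.17, 9.68 and 8.02 FPKM with PBS and 6.22, 7.05 and 7.53 FPKM with cisplatin. The lowest PBS and the highest cisplatin library were close to each other but did not overlap. The log2 fold change was -0.33 (SE 0.088, limma adjusted p = 0.0139), and the adjusted p was 0.0640 after quantile normalisation and 0.09998 with no filter on low values. The gene has a near-identical paralogue and its counting with respect to strand is not stated, so its level is less certain than the others.

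Stat6, the STAT of interleukin 4 and interleukin 13, changed least of the genes that fell. The gene (chromosome 10, 127642986 to 127660957, plus strand) was at 60.8, 60.0 and 64.4 FPKM with PBS and 54.3, 57.2 and 54.2 FPKM with cisplatin. The mean fell by 10.5% and the libraries did not overlap. Its log2 fold change was -0.16 (SE 0.042, 95% interval -0.26 to -0.058, limma adjusted p = 0.0130), and the adjusted p was 0.05003 without cisplatin replicate 3 and 0.0591 with no filter, neither under the threshold. Its last 40 bases overlap Nab2 on the opposite strand. The denominators behind FPKM were 103.7% to 104.1% of the recovered reads with cisplatin and 97.4% to 98.7% with PBS. Compared with division by recovered reads, this lowers cisplatin values and raises PBS values. The part of this scaling in the small changes of Stat6 and Stat5a was not tested.

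Stat4, the STAT of interleukin 12 signalling, best known from T cells and natural killer cells, had the lowest level of the 9. The gene (chromosome 1, 51987148 to 52107189, plus strand) was at 2.07, 2.45 and 2.41 FPKM with PBS and 2.96, 2.31 and 2.33 FPKM with cisplatin. The groups overlapped, and the log2 fold change was 0.09 (95% interval -0.15 to 0.33, limma adjusted p = 0.451). Differences within this interval could not be told from 0 with these libraries.

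The sum over the 5 STAT genes was 188 ± 1.48 FPKM (SD, n = 3) with PBS and 110 ± 2.92 FPKM with cisplatin, a ratio of 0.583. Unlike that of the kinases, its composition differed widely between groups. Stat2 made up 38.5% to 40.2% of it in the PBS libraries and 16.9% to 17.2% in the cisplatin libraries. Stat6 made up 31.8% to 34.0% with PBS and 49.2% to 50.9% with cisplatin, which made it the most abundant of the 5. Stat3 held 22.05% ± 0.47 (SD, n = 3) with PBS and 23.9% ± 0.64 with cisplatin. The ratio of Stat2 to Stat6 was 1.20 ± 0.065 with PBS and 0.340 ± 0.0088 with cisplatin, and that of Stat3 to Stat6 was 0.673 ± 0.023 and 0.476 ± 0.022.

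**Figure D4:**
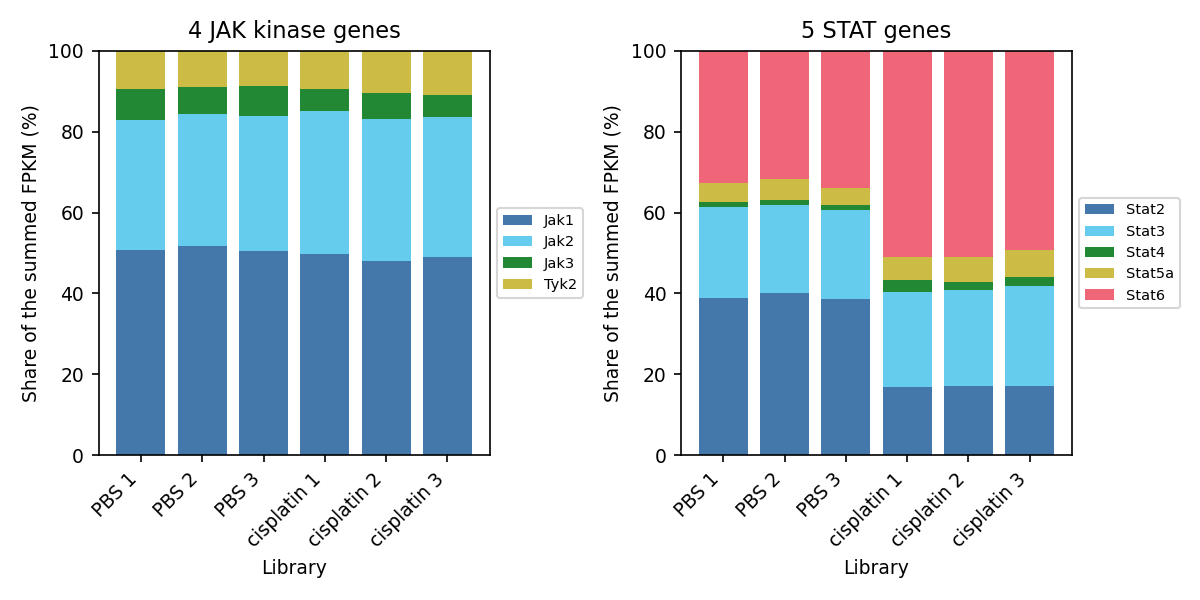
Share (%) of each gene in the summed FPKM of the 4 JAK kinase genes (left) and of the 5 STAT genes (right), with a stacked bar for each library. The Stat2 share is 38.5% to 40.2% in the PBS bars and 16.9% to 17.2% in the cisplatin bars, while the Jak1 share stays near 50% (51.0% and 48.9% on average).

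Another scale for the libraries moved all values together. When the libraries were scaled by 4 genes of the Y chromosome (Kdm5d, Uty, Ddx3y and Eif2s3y), chosen because ID8 cells derive from a female mouse, the median of all tested genes moved to -0.83, and the log2 fold changes of 8 genes ranged from -1.14 (Stat6) to -2.88 (Stat2) while Stat4 turned to -0.62 (limma adjusted p = 0.000687). Relative to that median the values were -0.77 for Jak1, -0.60 for Jak2, -0.92 for Jak3, -0.46 for Tyk2, -2.05 for Stat2, -0.78 for Stat3, 0.22 for Stat4, -0.38 for Stat5a and -0.31 for Stat6. With the 1 added before the log, a common factor shifts low genes less than high ones. From the main fit to this scaling, Jak1 went from -0.62 to -1.60 and Stat4 from 0.090 to -0.62. The values relative to the median therefore depend on the level of the gene, and the order of the genes is not tested by a common factor.

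The receptors that the Janus kinases serve moved in both directions. Of 36 listed receptor chains 29 were tested, with 15 higher and 10 lower at the adjusted p, of which 3 and 4 passed the fold threshold. Over all tested genes, the shares were 32.9% higher and 35.1% lower at the adjusted p, and 4.67% and 11.3% past both thresholds. The median log2 fold change of the list was 0.17. The type I interferon receptor genes Ifnar1 and Ifnar2, which lie upstream of Stat2 in the pathway and were picked out after their values were seen, had overlapping groups. Ifnar1 was at 32.4, 34.7 and 32.6 FPKM with PBS and 34.0, 32.1 and 31.9 FPKM with cisplatin (log2 fold change -0.025, 95% interval -0.13 to 0.079, limma adjusted p = 0.638). For Ifnar2 the log2 fold change was -0.025 (95% interval -0.15 to 0.11, limma adjusted p = 0.707).

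The 4 receptor genes past both thresholds in the lower direction were Lifr, Osmr, Il6st and Il13ra1. Lifr, the leukaemia inhibitory factor receptor, was at 8.89, 10.5 and 9.87 FPKM with PBS and 1.13, 0.955 and 0.995 FPKM with cisplatin. Osmr, the oncostatin M receptor, went from 33.1 ± 3.08 to 6.94 ± 0.47 FPKM (SD, n = 3). Il6st encodes the gp130 chain they share, and it was singled out with its values in view; its mean was 32.2 FPKM with PBS and 10.7 FPKM with cisplatin. Il13ra1, an interleukin 13 receptor chain, went from 68.2 ± 3.52 to 14.9 ± 1.98 FPKM. The log2 fold changes of these genes were -2.40, -2.10, -1.50 and -2.12. Il6ra, the interleukin 6-binding chain that pairs with gp130 and was also singled out with its values in view, moved the other way, from 6.42 to 12.9 FPKM (log2 fold change 0.91, limma adjusted p = 3.28e-06). The ID8 and mesothelial marker sum, given above, was lower in the same libraries, and its part in these receptor values was not tested.

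The 3 receptor genes past both thresholds in the higher direction, named for completeness after their values were seen, were Csf2ra, Csf3r and Il7r. Csf2ra, the alpha chain for granulocyte-macrophage colony-stimulating factor, rose from 42.8 to 102.5 FPKM on average, Csf3r, the granulocyte colony-stimulating factor receptor, from 46.9 to 99.4 FPKM and Il7r, the interleukin 7 receptor, from 6.11 to 14.2 FPKM. Under the Y-linked scaling 0 receptor genes passed both thresholds in the higher direction, so these calls end there. Csf3r is also among the neutrophil and precursor markers, whose sum was higher in the same libraries, and the part of those cells in it was not tested.

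Of 31 cytokine genes that signal through Janus kinases, 14 were tested, with 4 higher and 7 lower at the adjusted p (32.9% and 35.1% of all tested genes) and a median log2 fold change of -0.49. Only Lif, Il10 and Thpo, all lower, passed both thresholds (11.3% of all tested genes did so in that direction); Thpo, which is too low for the rule on named genes, is given for completeness. Lif, the ligand of Lifr, was at 11.5, 10.4 and 12.2 FPKM with PBS and 2.46, 2.52 and 2.45 FPKM with cisplatin. Il10, the anti-inflammatory cytokine that signals through Jak1, Tyk2 and Stat3, was at 35.9, 39.0 and 34.0 FPKM with PBS and 14.9, 10.4 and 13.4 FPKM with cisplatin. Their log2 fold changes were -1.83 (SE 0.066) and -1.44 (SE 0.122). Interferon beta and gamma transcripts (Ifnb1 and Ifng) stayed under 1 FPKM in every library and were not tested.

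All 19 inhibitors of the pathway were tested, with 6 higher and 7 lower at the adjusted p, which is near the shares of 32.9% and 35.1% over all tested genes. Their median log2 fold change was 0.038. Only Usp18, an interferon-induced protease that acts on the type I interferon receptor complex, passed both thresholds, as did 15.9% of all tested genes in either direction. It was at 66.9, 65.2 and 66.1 FPKM with PBS and 15.9, 15.5 and 16.3 FPKM with cisplatin (log2 fold change -1.99, SE 0.035), close to the change of Stat2, and it is also 1 of the 21 Stat2-Irf9 targets above.

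**Figure D5:**
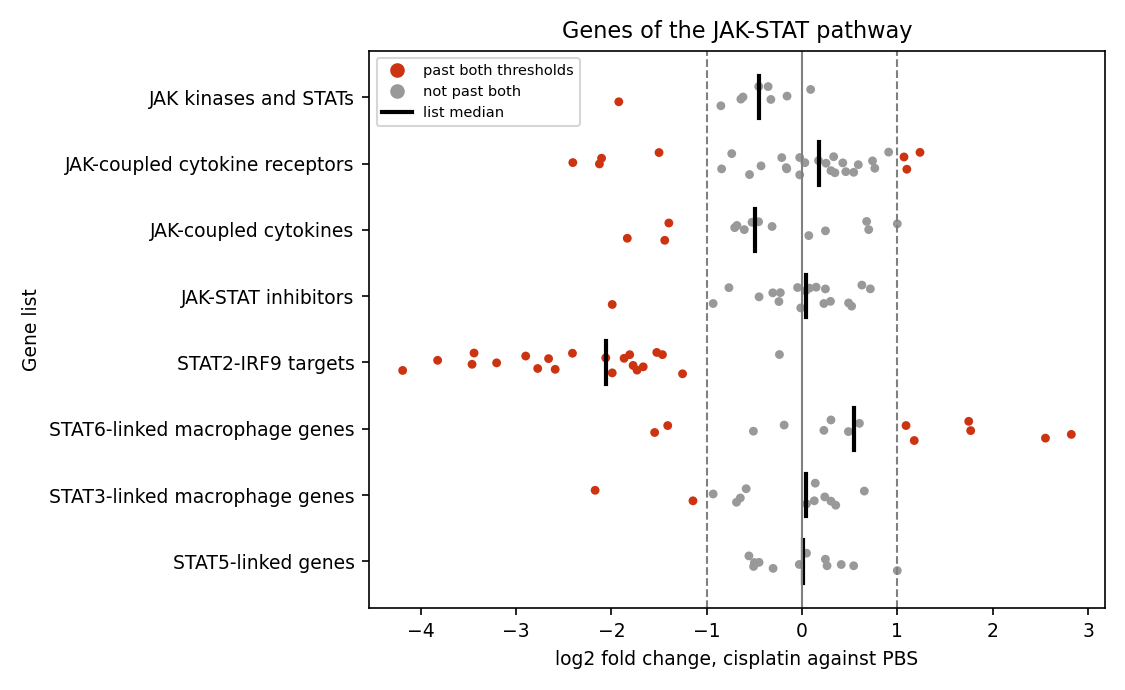
Log2 fold change, cisplatin against PBS, of each tested gene in the 9-gene group and in 7 lists of the pathway, with genes past both thresholds in red, the others in grey and a black bar at the list median. The Stat2-Irf9 targets lie furthest to the left with a median of -2.06, and the other medians lie between -0.49 and 0.54.

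Of 17 genes linked to Stat6 in macrophages, 14 were tested, with 9 higher and 3 lower at the adjusted p (32.9% and 35.1% of all tested genes) and a median log2 fold change of 0.54, while the mean of Stat6 itself fell by 10.5%. Past both thresholds 6 were higher and 2 lower (4.67% and 11.3% of all tested genes). Mrc1, the mannose receptor, rose from 0.743 ± 0.18 to 11.3 ± 0.44 FPKM (SD, n = 3, log2 fold change 2.82). The chemokine gene Ccl22 rose from 1.24 ± 0.24 to 12.1 ± 0.40 FPKM (log2 fold change 2.55) and Alox15, a lipoxygenase gene, from 1.25 ± 0.38 to 6.495 ± 0.11 FPKM (log2 fold change 1.75). Retnla was listed at 0 in all libraries. Mrc1 is also among the macrophage markers, whose sum was higher in the same libraries, and the part of cell make-up in this list was not tested.

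Of the 13 genes linked to Stat3 in macrophages, all were tested, with 6 higher and 6 lower at the adjusted p and a median of 0.046. The shares of all tested genes, for these counts and those of the Stat5-linked list that follows, were 32.9% and 35.1%. Ddit4, a stress-induced inhibitor of mTOR signalling, and Nfil3, a transcription factor of the bZIP family, were the 2 past both thresholds, and both fell, where 11.3% of all tested genes were past both in that direction. Ddit4 was at 109.2, 89.5 and 110.3 FPKM with PBS and 18.8, 24.7 and 22.9 FPKM with cisplatin, and Nfil3 went from 46.3 ± 1.06 to 20.5 ± 1.62 FPKM (SD, n = 3). The list linked to Stat5 proteins had 12 of 12 genes tested, with 5 higher, 5 lower, 0 past both thresholds in either direction and a median of 0.0087. Oncostatin M (Osm), the gene of this list nearest to the fold threshold and named for that with its values in view, averaged 9.30 FPKM with PBS and 19.6 FPKM with cisplatin, with a log2 fold change of 0.998.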

How the data were processed

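Poly-T selected RNA of 6 BMDM libraries, 3 per group by their labels, was used. The values deposited by the authors are FPKM for 54532 genes. Submitters' processing notes name fastp, HISAT2 2.0.5, featureCounts 1.5.0-p3 and mm10, whereas by the methods of the authors LifeScope was used for alignment and counting; which of these made the table, and whether strand was used, is not given in the sources used here. FPKM times gene length gave whole reads (tolerance 0.02) for 100% of values under 200 reads. The denominators behind FPKM were 103.7% to 104.1% of the recovered reads in cisplatin libraries and 97.4% to 98.7% in PBS libraries.

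Genes with at least 1 FPKM in at least 3 of 6 libraries (13441) were tested as log2(FPKM + 1), which understates changes of low genes, with limma 3.58.1 in R 4.3.3 (group as the only term, eBayes with trend, Benjamini-Hochberg adjustment over all tested genes). Genes were called where the adjusted p was under 0.05 and the log2 fold change 1 or more in size, the study's 2-fold threshold. The code of the fit was also run on simulated reads with known fold changes, and no result given here rests on that run. No count model was the main test because the values are not counts; limma voom on recovered reads was an alternative, beside another pseudocount, other filters, scalings, a replicate block and leaving out each library. The check of pairing gave correlations of -0.104, -0.0857 and -0.0235 between deviations of same-numbered libraries.

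Named were the 9 genes, Irf9, the 3 largest changes past both thresholds in each pathway list with at least 5 FPKM in the higher group, and the 2 genes nearest in pattern to each of the 9 past both thresholds. The members and lists were chosen with earlier results of these data known. Some single-gene results of the STAT family are not reported here, and sums cover the 5 STAT genes given. Coordinates are those of the table, on GRCm38, and sequences are from RefSeq (GRCm38.p6).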

Additional observations from a re-analysis of the deposited data

How the results depend on the processing

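Over 16 alternatives other than the Y-linked scaling, the sign of all 9 genes was kept (15 alternatives for Stat4, which a filter of 5 FPKM left untested), and Jak1, Jak2, Jak3, Tyk2, Stat2 and Stat3 had an adjusted p under 0.05 in all 16. Stat5a and Stat6 did so in 14 of 16, with largest adjusted p of 0.09998 and 0.0591; the exceptions were no filter for both, quantile normalisation for Stat5a and the fit without cisplatin replicate 3 for Stat6. Same-numbered libraries share only a number; with it as a replicate block, Stat2 had an adjusted p of 1.6e-05, Stat5a 0.0341 and Stat6 0.0448, and no call on the 9 genes changed.

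Scaling by Y-linked genes called 8 of the 9 genes lower, turned Stat4 to -0.62 and called 85 genes higher and 5181 lower over all genes, in place of 628 and 1514. It gave 0 receptors higher and 9 lower, and 8 cytokines, 7 inhibitors, 6 Stat3-linked and 6 Stat5-linked genes lower. With the adjusted p alone, 8 of the 9 genes were lower, 4424 of all genes were higher and 4721 lower. The higher and lower counts were then 15 and 10 for receptors, 4 and 7 for cytokines, 6 and 7 for inhibitors, 6 and 6 for Stat3-linked genes and 5 and 5 for Stat5-linked genes. Over all genes, those called higher numbered 973 with a pseudocount of 0.1 and 1002 with voom. Those called lower numbered 1981 and 2026, against 1514 in the main fit. Voom called 5 receptors higher and 7 lower. It called 5 cytokines lower, as did the pseudocount of 0.1. With the pseudocount of 0.1, median-of-ratios scaling, TPM rescaling, quantile normalisation and voom, 1 cytokine and 1 Stat5-linked gene were called higher, and leaving out 1 library gave 0 to 1 for each, with 1 without cisplatin replicate 1, cisplatin replicate 3 or PBS replicate 3. The gene nearest to the threshold there, Osm, belongs to both lists. Groups of 3 libraries limit the precision, while counting error was small: at the lowest read count its coefficient of variation was 8.39% for Stat4 and 4.08% or less for the other 8 genes.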
